A study of Mus musculus with 11 samples.

Results

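The genes described here are the 3 mouse Grainyhead-like transcription factors, Grhl1, Grhl2 and Grhl3, and 5 genes of epithelial identity, Esrp1, Spint1, Spint2, Epcam and Prss8. They were followed in closed neural tube and in the open neuroepithelium caudal to it. The 8 genes were taken by symbol from the probe sets that carry exactly 1 gene symbol, 13 probe sets in all out of 45101 on the array. For each gene the probe set of highest mean over the 11 arrays leads. Of the 8 genes, 7 had a lead probe set bright enough to be tested, among 13338 genes tested of 18193 on the array. Grhl1 was not bright enough and is given by its levels.

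Affymetrix whole-genome arrays were hybridized with RNA from neural tissue of C57BL/6 mouse embryos with no genetic change or treatment stated in the labels. The 4 groups were closed neural tube at E8.5 (n = 2), open neuroepithelium at E8.5 (n = 3), closed neural tube at E9.5 (n = 3) and open neuroepithelium at E9.5 (n = 3). All groups were detached from the embryo with pancreatin and trypsin, for 5 min at E8.5 and 8 min at E9.5, and kept the closely attached notochord. Tissue was pooled by litter over 111 embryos in all, and the small number of arrays limits the precision. The labels call the arrays biological replicates and do not say whether closed and open arrays share litters. Closed tissue lay rostral to open tissue, so closure and axial level cannot be told apart in any comparison of the regions. Enzyme time differed with stage, so age and enzyme time cannot be told apart in any comparison of the stages. In pooled tissue, fewer cells of a type and less RNA per cell cannot be told apart either.

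Grainyhead-like proteins bind DNA as dimers and drive genes that give epithelial sheets their adhesion, barrier and polarity. Mice without Grhl3 fail to close the posterior neuropore and have spina bifida, and mice without Grhl2 have open cranial and spinal neural tubes. In the mouse both genes are best known from the surface ectoderm and, in the caudal embryo, the hindgut, although Grhl3 is also found in the caudal neural plate. Esrp1 is an RNA-binding protein that sets epithelial splice forms. Spint1 and Spint2 encode membrane-bound Kunitz inhibitors of serine proteases such as the one encoded by Prss8, a membrane-anchored protease of epithelia. Epcam encodes a cell adhesion glycoprotein of epithelia.

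Closed tissue had less signal than open tissue for most of these genes, and Grhl2 had nearly the same mean signal in both. At E8.5, 5 of the 7 tested genes passed the test as lower in closed tissue, Grhl3, Esrp1, Spint1, Spint2 and Prss8, and 0 as higher. At E9.5, Grhl3, Esrp1, Spint1, Spint2 and Epcam passed as lower, and 0 as higher. In limma, 0 genes of the 7 were higher at an unadjusted p under 0.05 at either stage. Among all genes tested, 3.38% were lower and 3.79% higher at E8.5, and 5.79% were lower and 2.75% higher at E9.5. The median difference of the 7 genes, closed minus open, was -1.44 at E8.5 and -1.18 at E9.5 on the log2 scale, beside 0.0015 and -0.0069 over all genes tested.

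**Figure D1:**
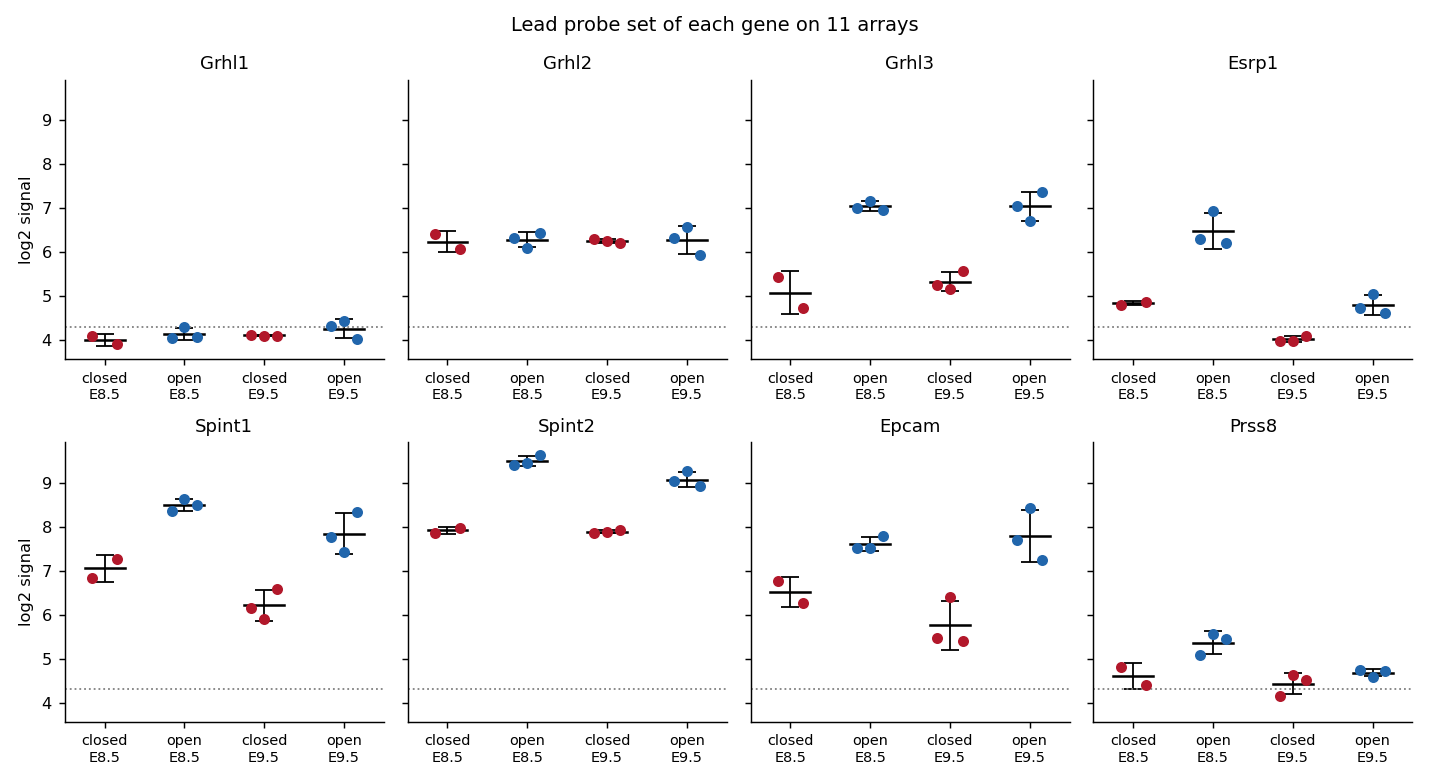
Log2 signal (y axis) of the lead probe set of each gene on each of the 11 arrays, by group (x axis). Points are arrays, the long bar is the group mean, the error bars are 1 SD and the dotted line is the filter at 4.3. Closed arrays lie below all open arrays of the same stage for Grhl3, Esrp1, Spint1, Spint2 and Epcam, while the groups overlap for Grhl1 and Grhl2. The share of all genes tested that separate in this way was not counted.

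Each value below is a deposited log2 signal of the lead probe set, with arrays in the order of their replicate numbers. A probe set's level can be compared between arrays, not with that of another probe set. Overlap between groups was looked at for these genes only. How many of all genes tested have groups without overlap was not counted, so a lack of overlap is a description. Differences come from a limma fit of the 4 group means over all 11 arrays, with their standard error (SE) and p-values adjusted by Benjamini-Hochberg over the 13338 genes, against a threshold of 0.05.

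Among the transcription factors, Grhl3 (probe set 1436932_at) stood at 5.42 and 4.73 on the closed E8.5 arrays, against 7.0, 7.17 and 6.95 on the open E8.5 arrays. At E9.5 it stood at 5.24, 5.15 and 5.57 on the closed arrays, against 7.05, 6.70 and 7.36 on the open arrays. Every closed array was below every open array at both stages, with no overlap. The difference was -1.97 at E8.5 (SE 0.23, adjusted p = 0.00018), which is 3.91-fold lower in closed tissue. At E9.5 it was -1.72 (SE 0.21, adjusted p = 0.00019), which is 3.28-fold lower in closed tissue. Closed and open arrays of the same replicate number, 5 comparisons in all, differed by between -2.44 and -1.54 for Grhl3. With no overlap, closed tissue had to be lower in all 5.

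Grhl2 (probe set 1431877_a_at) stood at 6.41 and 6.07 on the closed E8.5 arrays, against 6.33, 6.09 and 6.43 on the open E8.5 arrays. Its E9.5 values were 6.30, 6.25 and 6.21 on the closed arrays, against 6.33, 6.56 and 5.94 on the open arrays. All 4 groups overlapped. The difference was -0.04 at E8.5 (95% confidence interval -0.45 to 0.36, adjusted p = 0.984). At E9.5 it was -0.02 (95% confidence interval -0.38 to 0.34, adjusted p = 0.967). These intervals leave out differences of the size measured for Grhl3 on its own probe set. The difference between the genes itself was not tested. Of the other Grhl2 probe sets, 1427046_at and 1452643_at passed the filter. They differed between closed and open tissue by between -0.09 and 0.08 at the 2 stages, and 0 of these differences passed the test. The remaining Grhl2 probe set, 1431878_at, lay between 3.81 and 4.22 on all arrays, below the filter of 4.3.

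Grhl1 (probe set 1424030_at) averaged 4.13 over the 11 arrays and lay between 3.90 and 4.43, about the filter, so that a change in it could hardly be seen here. It stood at 4.10 and 3.90 on the closed E8.5 arrays, against 4.04, 4.28 and 4.07 on the open E8.5 arrays. The later stage gave 4.11, 4.10 and 4.10 on the closed arrays, against 4.31, 4.43 and 4.03 on the open arrays. The groups overlapped at both stages. Without the filter its closed minus open difference was -0.13 at E8.5 (SE 0.13, adjusted p = 0.894) and -0.16 at E9.5 (SE 0.12, adjusted p = 0.600).

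**Figure D2:**
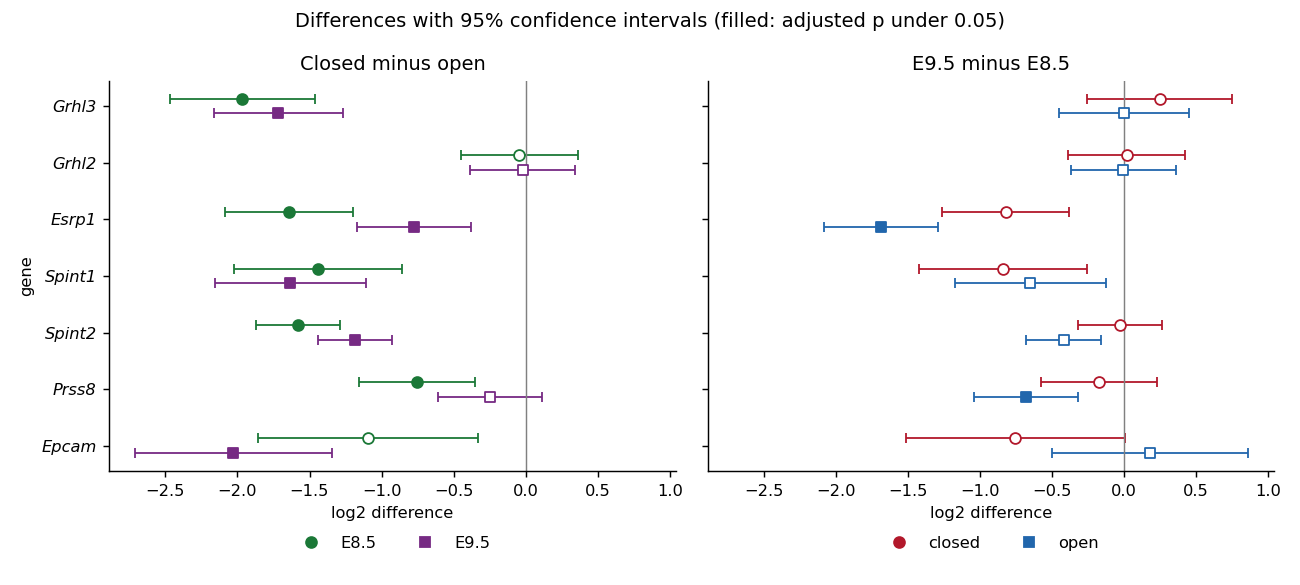
Log2 differences with 95% confidence intervals for the 7 tested genes (y axis), closed minus open at each stage (left) and E9.5 minus E8.5 in each region (right). Filled marks passed the test. In the left panel the marks of Grhl2 lie next to 0, at -0.04 and -0.02, and all others at -0.25 to -2.03, and in the right panel Esrp1 and Prss8 in open tissue are the filled marks.

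Esrp1 (probe set 1454681_at) differed between the regions and between the stages. It stood at 4.80 and 4.87 on the closed E8.5 arrays, against 6.29, 6.94 and 6.20 on the open E8.5 arrays. At E9.5 it stood at 3.97, 3.98 and 4.10 on the closed arrays, against 4.72, 5.05 and 4.60 on the open arrays. The regions did not overlap at either stage, and the closed E9.5 arrays lay below the filter, so the difference at E9.5 depends on the background there. Closed tissue was lower, with a log2 difference of -1.64 at E8.5 (SE 0.20, adjusted p = 0.00027) and of -0.78 at E9.5 (SE 0.18, adjusted p = 0.0188). The E9.5 call was lost with 1 array left out, for each of 4 arrays. The adjusted p was 0.0516 without open replicate 1, 0.0793 without open replicate 2, 0.0682 without closed replicate 1 and 0.0707 without closed replicate 2.

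Of the protease inhibitors, Spint2 (probe set 1438968_x_at) stood at 7.86 and 7.98 on the closed E8.5 arrays, against 9.40, 9.46 and 9.63 on the open E8.5 arrays. Signals at E9.5 were 7.86, 7.89 and 7.92 on the closed arrays, against 9.03, 9.26 and 8.93 on the open arrays. The 5 closed arrays lay close together across both stages, and all were well below every open array. The difference was -1.58 at E8.5 (SE 0.13, adjusted p = 1.2e-05) and -1.18 at E9.5 (SE 0.12, adjusted p = 4.5e-05). The second Spint2 probe set, 1451935_a_at, was lower, with a log2 difference of -1.28 at E8.5 and of -0.70 at E9.5. In the fit of all probe sets one by one its adjusted p was 0.00355 at E8.5 and 0.0481 at E9.5.

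Spint1 (probe set 1416627_at) stood at 6.83 and 7.28 on the closed E8.5 arrays, against 8.36, 8.63 and 8.51 on the open E8.5 arrays. At E9.5 it stood at 6.16, 5.90 and 6.60 on the closed arrays, against 7.78, 7.43 and 8.34 on the open arrays. The order of the groups was open E8.5, open E9.5, closed E8.5 and closed E9.5 from high to low, and no group overlapped its neighbour. Closed tissue was lower, with a log2 difference of -1.44 at E8.5 (SE 0.27, adjusted p = 0.00503), or 2.72-fold, and of -1.63 at E9.5 (SE 0.24, adjusted p = 0.000893), or 3.10-fold. Without closed E8.5 replicate 1 the E8.5 difference was -1.22 with an adjusted p of 0.0560.

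Prss8 (probe set 1418320_at), the protease, stood at 4.82 and 4.40 on the closed E8.5 arrays, against 5.07, 5.57 and 5.45 on the open E8.5 arrays. Its E9.5 values were 4.15, 4.62 and 4.53 on the closed arrays, against 4.74, 4.58 and 4.73 on the open arrays. The regions did not overlap at E8.5 and overlapped at E9.5, and all groups but open E8.5 were near the filter. The difference was -0.76 at E8.5 (SE 0.18, adjusted p = 0.0272) and -0.25 at E9.5 (SE 0.16, adjusted p = 0.475). The E8.5 call did not hold with a replicate block within stage, which sets same-numbered arrays against each other (adjusted p = 0.0511). It was also lost without closed E8.5 replicate 2 (-0.54, adjusted p = 0.250), open E8.5 replicate 2 (adjusted p = 0.102) or open E8.5 replicate 3 (adjusted p = 0.0992).

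The adhesion gene Epcam (probe set 1416579_a_at) stood at 6.76 and 6.27 on the closed E8.5 arrays, against 7.53, 7.52 and 7.78 on the open E8.5 arrays. The E9.5 signals were 5.47, 6.41 and 5.41 on the closed arrays, against 7.69, 8.43 and 7.25 on the open arrays. The regions did not overlap at either stage, and replicate 2 was the highest array of both regions at E9.5. At E8.5 the difference of -1.09 (SE 0.35) did not pass (adjusted p = 0.0994). With the replicate block within stage it was -1.01 and passed (adjusted p = 0.00139). At E9.5 the difference was -2.03 (SE 0.31, adjusted p = 0.00131), which is 4.08-fold lower in closed tissue. Same-numbered arrays differed by -0.77 and -1.25 at E8.5 and by -2.22, -2.02 and -1.84 at E9.5.

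The second Epcam probe set, 1447899_x_at, did not follow the first. It stood at 6.95 and 6.44 on the closed E8.5 arrays, against 7.10, 6.72 and 6.91 on the open E8.5 arrays. At E9.5 it stood at 6.58, 6.64 and 7.09 on the closed arrays, against 6.74, 6.84 and 6.44 on the open arrays. The regions overlapped at both stages, with differences of -0.22 at E8.5 (SE 0.21, adjusted p = 0.908) and 0.10 at E9.5 (SE 0.19, adjusted p = 0.872) in the fit of all probe sets one by one. The Epcam result therefore rests on the lead probe set. Which transcript each probe set reads was not analysed here.

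**Figure D3:**
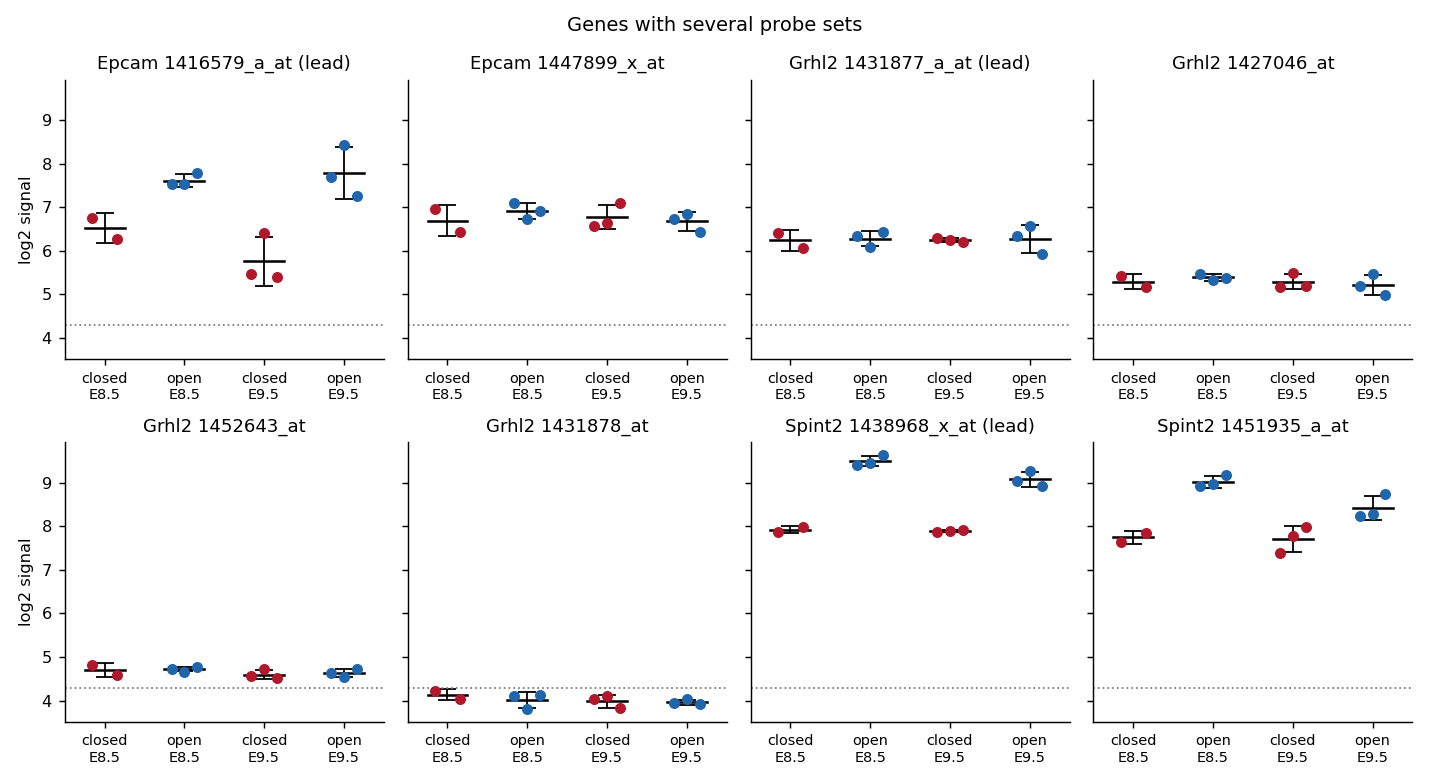
Log2 signal (y axis) of every probe set of the 3 genes with several, on each array by group (x axis); points are arrays, long bars group means, error bars 1 SD, and the dotted line is the filter at 4.3. The 2 Spint2 probe sets both lie lower in closed tissue, the groups of the 4 Grhl2 probe sets overlap, and the 2 Epcam probe sets differ from each other.

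Over both stages together, 6 of the 7 genes were lower in closed tissue and 0 higher, beside 6.82% of all genes tested lower and 5.13% higher. The differences were -1.84 for Grhl3, -1.21 for Esrp1, -1.54 for Spint1, -1.38 for Spint2, -1.56 for Epcam and -0.50 for Prss8, with adjusted p between 6.6e-07 for Spint2 and 0.0187 for Prss8. Without closed E8.5 replicate 2 the Prss8 difference was -0.40 (adjusted p = 0.0912), and without open E8.5 replicate 3 it was -0.48 (adjusted p = 0.0520). Grhl2 differed by -0.03 (adjusted p = 0.953).

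Between the stages, Esrp1 and Prss8 were lower in open tissue at E9.5, where the enzyme step was also longer. Esrp1 was lower at E9.5 than at E8.5, with a difference of -1.69 (SE 0.18, adjusted p = 0.00025), a 3.22-fold difference, and no open E9.5 array reached an open E8.5 array. Prss8 was lower, with a log2 difference of -0.68 (SE 0.16, adjusted p = 0.0344). That call was lost without open E8.5 replicate 2 (adjusted p = 0.134) or 3 (0.129), and without replicate 1 (0.0910) or 2 (0.130) of the open E9.5 arrays. Grhl3 had the same mean signal in open tissue at both stages, 7.04 ± 0.33 at E9.5 and 7.04 ± 0.12 at E8.5 (SD, n = 3 each). The Grhl3 difference had a 95% confidence interval of -0.45 to 0.45. Spint1 differed by -0.65 (adjusted p = 0.170), Spint2 by -0.42 (adjusted p = 0.0708), Epcam by 0.18 (adjusted p = 0.799) and Grhl2 by -0.01 (adjusted p = 0.990). Of all genes tested, 1.42% were lower and 3.61% higher at E9.5 in open tissue. These stage comparisons use the same open arrays as the comparisons of the regions.

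Some markers of other tissues moved between the stages in the same open arrays. Of 11 tested mesenchyme genes and repressors, 4 were higher at E9.5, 0 were lower and 7 did not pass. Those higher included Vim, an intermediate filament gene, at 1.62 (adjusted p = 0.00943), Cdh11 at 1.15 (adjusted p = 0.00172) and Pdgfra at 1.12 (adjusted p = 0.00293). Without open E8.5 replicate 1, 2 were higher. Pdgfrb averaged 6.97 at E8.5 and 6.51 at E9.5 and did not pass. Prrx1 (4.35 and 4.36), Col1a1 (3.93 and 3.94) and Twist1 (4.03 and 3.90) had too little signal to be tested. Of 7 tested notochord markers, which do not include T and Noto, 3 were lower and 0 higher. They were Cav1 at -0.90 (adjusted p = 0.000714), Shh at -0.65 (adjusted p = 0.0114) and Krt8 at -1.02 (adjusted p = 0.0294). Without open replicate 1 or 2 of either stage, 1 was lower. In each of the other 9 gene lists 0 to 3 genes were lower and 0 to 2 higher. The part of these tissues in the lower Esrp1 and Prss8 signal at E9.5 was not tested.

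In closed tissue 0 of the 7 genes passed between the stages in limma, and 2 had an unadjusted p under 0.05. These were Esrp1 at -0.82 (SE 0.20, adjusted p = 0.0647) and Spint1 at -0.84 (SE 0.27, adjusted p = 0.179). The closed E9.5 arrays were below both closed E8.5 arrays for these 2 genes. Esrp1 passed without open E8.5 replicate 2 (adjusted p = 0.0101). Epcam differed by -0.76 (adjusted p = 0.496), Prss8 by -0.18, Spint2 by -0.03, Grhl2 by 0.02 and Grhl3 by 0.25, with adjusted p of 0.933 or more for the last 4. Of all genes tested, 1.46% were lower and 0.960% higher at E9.5 in closed tissue.

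Whether a region difference changed with stage was tested as the closed minus open difference at E9.5 minus that at E8.5. In limma 0 of the 7 genes passed, and 2 had an unadjusted p under 0.05, Esrp1 at 0.86 (SE 0.27, adjusted p = 0.244) and Spint2 at 0.39 (SE 0.18, adjusted p = 0.514). Epcam stood at -0.93 (adjusted p = 0.571). With the replicate block within stage, Esrp1 passed at 1.01 (adjusted p = 0.0339), a smaller gap between the regions at E9.5, and Epcam passed at -1.02 (adjusted p = 0.0209), a wider gap at E9.5. Among all genes tested 1.25% passed in either direction. Of the other genes, Grhl3 had 0.25 with a 95% confidence interval of -0.43 to 0.93.

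RNA quality differed between arrays. In the control probe sets for Actb and Gapdh, the 3-prime minus the 5-prime signal was between 1.18 and 1.82 on closed E8.5 arrays, 1.15 and 1.32 on open E8.5 arrays, and 1.20 and 1.72 on closed E9.5 arrays. On open E9.5 arrays it was 2.20, 2.48 and 1.14 for replicates 1, 2 and 3. When the first and second of those were both left out, 1 open E9.5 array remained, which gives no spread of its own. On that array Grhl3, Esrp1, Spint1, Spint2 and Epcam stood above every closed E9.5 array. How many of all genes tested did so was not counted. The Esrp1 difference at E9.5 was then -0.59. With the 3-prime minus 5-prime signal as a covariate over all arrays, the Esrp1 difference at E9.5 was -0.73 and passed (adjusted p = 0.0229). That of Epcam at E8.5 was -1.26 and passed (adjusted p = 0.00511). Between the stages in open tissue, the covariate left Esrp1 at -1.76 (adjusted p = 0.00021) and Prss8 at -0.64, which no longer passed (adjusted p = 0.0619). In the same comparison Spint2 passed at -0.50 (adjusted p = 0.0329), and Spint1 stood at -0.19 (adjusted p = 0.490). Without open E9.5 replicates 1 and 2 together, Prss8 was again at -0.64, with 1 open E9.5 array left.

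Promoter sequences are shown for the genes with an entry that were lower in closed tissue, to let the reader see the letters near their start. RefSeq promoter windows (build GRCm38.p6, 250 bases before to 50 after the start) were matched by symbol for 5 of the 8 genes. Each runs 5′ to 3′ on the strand of the gene, and capitals mark matches to ACCGGT, the core of the Grainyhead consensus, or to CAGGTG or its reverse CACCTG, an E-box of the kind that repressors of epithelial genes such as Zeb1 and Snai1 bind. The windows lie at chr4:135573583-135573882 on the minus strand for Grhl3, chr2:119237110-119237409 on the plus strand for Spint1, chr7:29281928-29282227 on the minus strand for Spint2, and chr17:87635729-87636028 on the plus strand for Epcam.
Grhl3: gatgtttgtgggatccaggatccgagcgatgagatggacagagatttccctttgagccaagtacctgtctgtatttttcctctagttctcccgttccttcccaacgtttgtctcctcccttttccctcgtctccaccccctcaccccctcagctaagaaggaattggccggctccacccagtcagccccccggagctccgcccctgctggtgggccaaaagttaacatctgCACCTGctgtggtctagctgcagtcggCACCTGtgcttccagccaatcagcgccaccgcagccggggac
Spint1: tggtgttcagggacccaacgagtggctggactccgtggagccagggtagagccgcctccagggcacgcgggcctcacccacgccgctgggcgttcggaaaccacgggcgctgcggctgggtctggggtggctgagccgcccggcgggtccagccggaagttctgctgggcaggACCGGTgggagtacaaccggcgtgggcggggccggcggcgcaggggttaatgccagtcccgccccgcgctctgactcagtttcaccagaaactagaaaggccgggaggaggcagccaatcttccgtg
Spint2: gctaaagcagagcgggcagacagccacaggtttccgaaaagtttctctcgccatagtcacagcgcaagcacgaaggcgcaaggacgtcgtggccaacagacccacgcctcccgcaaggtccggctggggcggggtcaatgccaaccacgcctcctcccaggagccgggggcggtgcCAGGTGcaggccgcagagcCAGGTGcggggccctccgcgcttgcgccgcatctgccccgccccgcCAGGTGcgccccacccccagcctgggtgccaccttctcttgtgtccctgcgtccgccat
Epcam: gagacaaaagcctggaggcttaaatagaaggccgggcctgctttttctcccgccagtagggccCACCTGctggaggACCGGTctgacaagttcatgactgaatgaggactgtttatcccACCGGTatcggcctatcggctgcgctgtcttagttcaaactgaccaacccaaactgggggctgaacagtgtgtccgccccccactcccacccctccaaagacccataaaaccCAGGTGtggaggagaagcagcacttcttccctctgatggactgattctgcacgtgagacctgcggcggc

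The Epcam window held ACCGGT 2 times, with first bases 174 and 131 bases before the start, and the Spint1 window held it once, 77 bases before the start. Of 32851 RefSeq promoter windows of the same length, 2.33% held at least 1 match to ACCGGT and 0.055% at least 2. The motif reads the same on both strands. The full palindrome AACCGGTT was in 0.146% of windows and in none of these 4. The E-box was searched on both strands and was in 20.2% of windows. It was found 2 times in Grhl3 and in Epcam and 3 times in Spint2, where 2.88% of all windows held 2 or more. The windows of Spint1 and Grhl1 had no E-box, and those of Grhl1, Grhl3 and Spint2 had no ACCGGT. No match overlapped another. These are matches of letters, and binding was not measured.

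**Figure D4:**
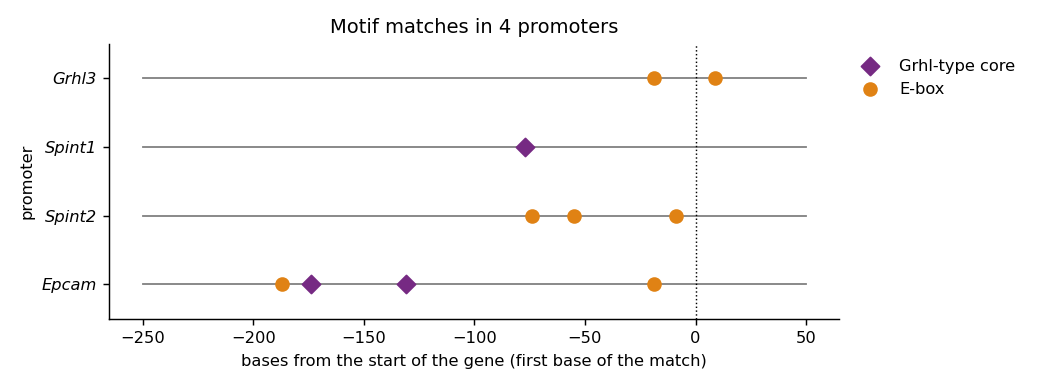
Positions of motif matches in the 4 promoter windows printed in the text (y axis), as the first base of each match relative to the start of the gene in bases (x axis; the dotted line is the start). Diamonds are the Grhl-type core and circles the E-box; Epcam holds 2 of each, Spint1 1 diamond, Grhl3 2 circles and Spint2 3 circles.

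Other epithelial genes were read from lists chosen with results of these data known, so their counts are a description. Of 16 tested genes linked to Grhl factors in other epithelia, 3 were lower and 1 higher in closed tissue at E8.5, and 3 lower and 1 higher at E9.5. Marveld2, which encodes a protein of tricellular tight junctions, was lower, with a log2 difference of -1.13 at E8.5 (adjusted p = 0.0058) and of -1.12 at E9.5 (adjusted p = 0.00269). The claudin gene Cldn6 was lower, with a log2 difference of -2.19 at E8.5 (adjusted p = 0.0111), and the transcription factor gene Tfcp2l1 had -0.64 (adjusted p = 0.00956). At E9.5 Lad1 was lower, with a log2 difference of -1.04 (adjusted p = 0.00104), and the claudin gene Cldn3 had -0.53 (adjusted p = 0.0336). Llgl2, a basolateral polarity gene, was higher in closed tissue by 2.01 at E8.5 (adjusted p = 1.5e-06) and 1.01 at E9.5 (adjusted p = 0.00012). The list's median was -0.13 at E8.5 and -0.12 at E9.5, well short of the median of the 7 genes above.

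Cdh1, which encodes E-cadherin and is a known target of Grhl2, was near background and not tested. Its mean signal was 4.08 in closed and 4.66 in open tissue at E8.5, and 3.10 in closed and 3.69 in open tissue at E9.5. The epithelial repressor gene Zeb1 stood at 9.30 in closed and 9.20 in open tissue at E8.5 (difference 0.10, adjusted p = 0.899), and at 9.67 in closed and 9.46 in open tissue at E9.5 (difference 0.21, adjusted p = 0.308). Its relative Zeb2 stood at 8.60 in closed and 7.50 in open tissue at E8.5 (difference 1.09, SE 0.56, adjusted p = 0.434), and at 8.53 in closed and 7.44 in open tissue at E9.5 (difference 1.09, SE 0.50, adjusted p = 0.268). The Zeb2 differences were about 1 on the log2 scale and did not pass, nor over both stages together (1.09, adjusted p = 0.0964). In a list of mesenchyme genes and repressors of epithelial genes, 0 of 11 tested genes passed at E8.5, with 1 at an unadjusted p under 0.05, and at E9.5 2 were lower, Cdh11 at -0.95 and Fn1 at -0.60 (4 without closed replicate 1). With the replicate block within stage, 1 of the 11 was lower at E8.5, and at E9.5 5 were lower and 1 higher. The block also raised the count over all 13338 genes tested, from 957 to 1332 at E8.5 and from 1139 to 2221 at E9.5. The block counts of the lists below are to be read beside that rise.

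Of 12 tested genes of the serine protease cascade to which the Spint inhibitors and Prss8 belong, 2 were lower and 1 higher at E8.5. St14 encodes matriptase, a protease held in check by the Spint proteins. It was lower in closed tissue, with a log2 difference of -1.0 at E8.5 (adjusted p = 0.000847) and a mean signal of 5.16 in closed and 6.16 in open tissue. Tmprss2, a membrane serine protease, was lower, with a log2 difference of -1.74 at E8.5 (adjusted p = 0.0016) and of -1.64 at E9.5 (adjusted p = 0.000974). Met, the receptor of the growth factor that such proteases activate, was higher in closed tissue by 1.88 at E8.5 (adjusted p = 5.2e-05) and by 0.69 at E9.5 (adjusted p = 0.0248). The Met call at E9.5 was lost when any array of that stage but closed replicate 3 was left out. At E9.5 the list had 1 gene lower and 1 higher, and 3 lower and 1 higher with the replicate block within stage.

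Epithelial junction and keratin genes had 7 of 22 tested genes lower and 0 higher at E8.5, and 6 lower and 0 higher at E9.5. The desmosome genes Pkp2 (-1.09 at E8.5, -0.99 at E9.5), Dsp (-1.53 and -1.91) and Dsg2 (-0.89 and -0.92) passed at both stages. Dsc2 passed at E9.5 (-1.14). The keratin genes Krt8 (-1.10), Krt18 (-0.88) and Krt19 (-1.19) were lower at E8.5, with differences of 0.51, 0.01 and 0.24 at E9.5 that did not pass. The count at E8.5 was 2 or 3 with any array of that stage left out, 2 without open replicate 1 or closed replicate 1. At E9.5, 2 genes of the list were higher with the replicate block within stage. Without the filter, which adds Cdh1, 7 of 23 genes were lower and 0 higher at each stage.

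Markers of other tissues moved with the regions too. Notochord markers, which include these 3 keratins, had 7 of 9 listed genes tested. The defining markers T and Noto were not among the genes with a usable probe set. At E8.5, 6 of the 7 were lower in closed tissue (3 without open replicate 1 or 2). The seventh, Foxa2, stood at 0.59 and did not pass (adjusted p = 0.232). At E9.5, 2 of 7 were higher, Shh and Foxa2 (1 without open replicate 1 or 2 or closed replicate 1 or 3 of that stage). The summed linear signal of the 7 genes was 1812 to 2369 on closed and 3096 to 4073 on open arrays at E8.5, and 2868 to 3723 on closed and 1990 to 2546 on open arrays at E9.5. Such sums weight a list by its brightest probe sets. In an alternative chosen after seeing the data, each list was also summed without the gene whose linear signal differed most between the regions. For the notochord this gene was Shh, which the floor plate also expresses, and which made up 52.9% of the sum in closed and 57.2% in open tissue at E8.5. Without Shh the sum was 798.1 to 1172 on closed and 1296 to 1845 on open arrays at E8.5, and 930.9 to 1411 on closed and 798.6 to 1055 on open arrays at E9.5, where the regions overlapped. Chrd (-0.72 at E8.5, adjusted p = 0.00593) and Cav1 (-0.94, adjusted p = 0.000574) were lower in closed tissue at E8.5, with differences of -0.35 and -0.18 at E9.5 that did not pass. The part of the notochord in the differences of Grhl3 and the epithelial genes was not tested.

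Surface ectoderm, the tissue next to the neural folds where Grhl2 and Grhl3 are best known, had 2 of 11 tested markers higher in closed tissue at either stage and 0 lower. In limma 1 was lower at an unadjusted p under 0.05 at E8.5 and 0 at E9.5. The genes that passed were Tfap2b (1.22 at E8.5, 1.90 at E9.5) and Tfap2c (1.43 and 1.89), which the dorsal neural tube and neural crest also express. At E8.5 0 markers passed as higher without open E8.5 replicate 2 or 3. Of the defining markers, Krt14 averaged 3.91 in closed and 3.90 in open tissue at E9.5, below the filter. Trp63 averaged 4.33 in closed and 4.27 in open tissue at E9.5, about the filter. The summed signal of the 14 markers was 962.6 to 1362 on closed and 655.3 to 796.8 on open arrays at E8.5, and 803.4 to 1067 on closed and 492.7 to 648.7 on open arrays at E9.5. Without Tfap2c, which had the largest difference, it was 548.5 to 552.7 on closed and 478.6 to 535.7 on open arrays at E8.5, and 518.7 to 555.8 on closed and 416.2 to 500.9 on open arrays at E9.5. Wnt6 differed by -0.47 at E8.5 (adjusted p = 0.0567) and by -0.25 at E9.5 (adjusted p = 0.273), and over both stages together it was lower in closed tissue (-0.36, adjusted p = 0.0185). The part of surface ectoderm in the differences of Grhl3 and the epithelial genes was not tested.

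Gut endoderm markers had 1 of 7 tested genes higher in closed tissue at each stage, Cpn1 at 3.20 and 1.42, and 1 lower at E9.5, Foxa1 at -0.80. The Foxa1 call was lost without open replicate 1, closed replicate 2 or closed replicate 3, and at E8.5 1 gene was lower with the replicate block within stage. The defining genes Sox17, Foxa3 and Hhex had group means of 3.46 to 4.38 and were not tested. The summed signal of the 13 markers was 1004 to 1143 on closed and 631.3 to 709.7 on open arrays at E8.5, and 805.1 to 923.2 on closed and 712.9 to 850.5 on open arrays at E9.5. The order of the regions in this sum was that of Cpn1 alone. Without it the sum was 520.3 to 547.5 on closed and 565.8 to 647.2 on open arrays at E8.5, and 436.1 to 516.7 on closed and 582.5 to 677.7 on open arrays at E9.5, lower in closed tissue. This lower sum still includes Foxa1, whose mean signal at E9.5 was 7.61 in closed tissue, against 8.41 in open tissue. No sum was made without Foxa1 as well, so the order of the regions need not be that of the list as a whole. Over both stages together Rbp4 (-0.68, adjusted p = 0.0193) and Foxa1 (-0.46, adjusted p = 0.0423) were lower and Cpn1 higher. The part of gut endoderm in the differences of Grhl3 and the epithelial genes was not tested.

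Mesoderm markers had 2 of 7 tested genes lower in closed tissue at each stage, the presomitic genes Hes7 (-3.87 at E8.5, -3.12 at E9.5) and Tbx6 (-2.23 and -1.99). In limma 0 passed as higher at either stage. At an unadjusted p under 0.05, 3 were higher at E8.5 and 0 at E9.5, and 3 passed as higher at E8.5 without closed replicate 1. With no filter, 2 of 10 passed as higher at E8.5 and 0 at E9.5. The summed signal of 10 mesoderm markers was 326.7 to 674.6 on closed and 1070 to 1251 on open arrays at E8.5, and 303.6 to 307 on closed and 695 to 981.5 on open arrays at E9.5. Hes7 carried this difference, with 11.9% of the sum in closed and 73.6% in open tissue at E8.5. Without Hes7 the regions overlapped, with 266.9 to 615.6 on closed and 296.6 to 343.6 on open arrays at E8.5, and 234.8 to 248.5 on closed and 246.8 to 336 on open arrays at E9.5. The somite gene Meox1 differed by 1.39 at E8.5 (adjusted p = 0.0530). The part of attached mesoderm in the differences of Grhl3 and the epithelial genes was not tested. Neural plate markers had 5 of 10 tested genes higher in closed tissue at each stage, Pax6 and Sox1 among them, and 3 at the least with 1 array left out. At E9.5, 2 were lower with the replicate block within stage. Sox2, a marker of the whole neural plate, averaged 11.4 in closed and 11.3 in open tissue at E8.5, and 11.5 in closed and 11.1 in open tissue at E9.5, far above the filter in all groups. Its difference was 0.10 at E8.5 (adjusted p = 0.850) and 0.43 at E9.5, where it passed as higher in closed tissue (adjusted p = 0.0117).

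**Figure D5:**
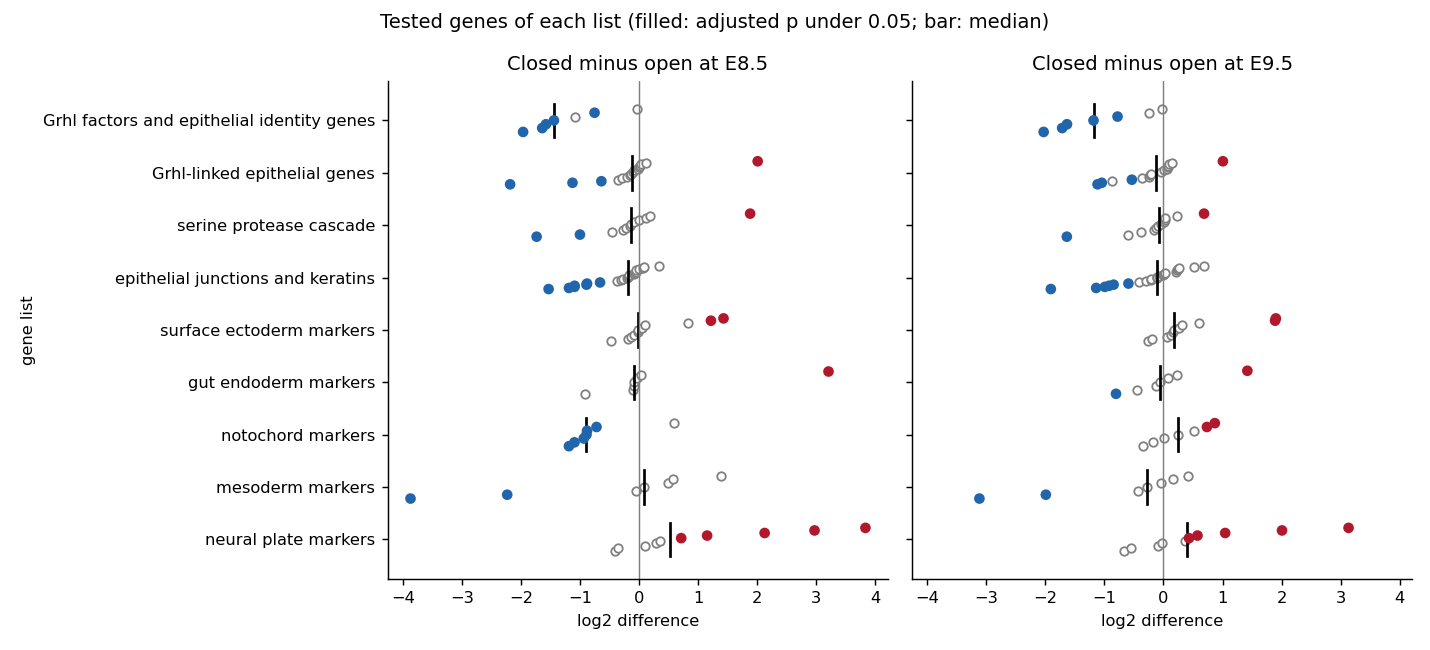
Closed minus open log2 difference (x axis) of every tested gene of 9 gene lists (y axis) at E8.5 (left) and E9.5 (right). Points are genes, filled where they passed the test, red if higher and blue if lower in closed tissue, and the bar is the list's median. The medians of the top row lie at -1.44 and -1.18, and the other epithelial lists have most points near 0.

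Genes placed beside Grhl3 in spinal closure, from planar polarity and caudal Wnt signalling, had 3 of 10 tested genes lower and 1 higher in closed tissue at each stage. Cdx2, a caudal transcription factor, was lower, with a log2 difference of -3.51 at E8.5 and -2.05 at E9.5. Ptk7, of the planar polarity pathway, was lower, with a log2 difference of -1.47 and -0.95, and so was the ligand gene Wnt3a, with -1.30 and -1.07. Tcf7l1, a transcription factor that holds Wnt targets down, was higher by 1.36 and 1.41. Vangl2 stood at 0.56 (adjusted p = 0.603) at E8.5 and 0.68 (adjusted p = 0.276) at E9.5. Of the 10 genes, 2 were higher at E8.5 and 3 at E9.5 with the replicate block within stage. Among 10 tested splicing regulators beside Esrp1, 0 passed at either stage in limma. Of these, 3 had an unadjusted p under 0.05 at E8.5 and 1 at E9.5, and with the replicate block within stage 2 were higher at E8.5. Esrp2, the closest relative of Esrp1, differed by -0.29 at E8.5 (adjusted p = 0.591).

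The tested genes with the pattern most like that of Grhl3, by Pearson correlation of log2 signal over the 11 arrays, were Qrfpr (r = 0.982), Ccdc136 (0.979), Evx1 (0.979), Fblim1 (0.977) and Evx1os (0.976). The 11 arrays share the split by region, which by itself raises such a correlation. Over the 6 open arrays alone, r with Grhl3 was 0.844 for Qrfpr, 0.596 for Fblim1, 0.452 for Ccdc136, 0.130 for Evx1 and 0.035 for Evx1os. The homeobox gene Evx1 differed by -4.81 at E8.5 and -4.14 at E9.5, more than Grhl3 did. For Grhl2 the most alike were Gm5113 (r = 0.942), Plcb4 (0.936), Pi4k2a (0.932), 2610507B11Rik (0.928) and the tight junction gene Tjp1 (0.927). Over the 6 open arrays these 5 had r of 0.940 to 0.968 with Grhl2. Among the open arrays Grhl2 was highest on E9.5 replicate 2 (6.56) and lowest on E9.5 replicate 3 (5.94). These 2 arrays also had the highest and lowest 3-prime minus 5-prime signal of the open arrays (2.48 and 1.14). The part of RNA quality in these correlations was not tested. The differences of these 5 genes between the regions lay between -0.12 and 0.10 at both stages.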

How the data were processed

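Signal on the log2 scale was deposited for 45101 probe sets on 11 arrays and ran from 2.37 to 14.717, with 0 values missing. Per the submitters' processing notes MAS5 was used, with no version or role given. Array medians lie between 4.80 and 4.90. How the authors corrected background and normalized these log2 values is not given in the sources used here, and they were used unchanged. Per the labels 12 arrays were hybridized, of which the authors dropped 1 (closed E8.5) after quality assessment. Biotin-labelled target was made from 50 ng of RNA a sample.

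Of the probe sets, 34945 carry exactly 1 gene symbol. Tests leave out those with several symbols (932) or none, and 64 controls. The annotation is GEO's for the platform and can be old; symbols were looked up by gene ID for 34741 probe sets and 0 changed. The brightest probe set by mean stood for each of 18193 genes, and 13338 genes whose mean reached the 40th percentile over the array (4.3) were tested. Group means were fitted in R 4.3.3 using limma 3.58.1 (lmFit, then contrasts.fit, then eBayes with a trend in intensity; 7 residual degrees of freedom), with Benjamini-Hochberg adjustment over all genes tested. Detection calls were not used here.

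The 8 genes, the 11 gene lists and the rule for genes to name were chosen with earlier results of these data known. The rule names the 8 genes in every comparison, up to 3 genes a list and direction of smallest p among those that passed, of which examples are printed, defining markers with their level, and the 5 genes most correlated with Grhl3 and with Grhl2. Krt8, Krt18, Krt19, Dsg2 at E9.5, Zeb1, Zeb2, Meox1, Wnt6, Vangl2 and Esrp2, and Chrd, Cav1 and Rbp4 where they did not pass, were named after their values were seen. The same holds for Msgn1.

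The fit was tested on simulated data for 13338 genes, drawn independently for each array with the same spread on all arrays for a gene. The real arrays have correlated deviations and differ in RNA quality, so the simulated counts need not hold for them. Of 100 genes changed by 1 on the log2 scale it recovered 79 for closed minus open at E8.5 and 81 at E9.5, and of 100 changed by 2 it recovered 96 and 100, with 11 false calls among all genes in each comparison.

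Replicate numbers are shared between the regions. Across genes, deviations from the group means of same-numbered closed and open arrays correlated at 0.308 to 0.697 in all 5 pairs. Those of different-numbered arrays correlated at -0.697 to 0.317. The deviations of the 2 closed E8.5 arrays mirror each other, so -0.697 and 0.697 are the same value with its sign turned. At E9.5, closed replicate 1 correlated at 0.308 with open replicate 1 and at 0.317 with open replicate 2. These values therefore cannot show that the numbers mark pairs. The reported differences, standard errors and p-values come from the fit without pairing, unless the replicate block is named. The replicate block within stage, which treats same-numbered arrays as pairs, was an alternative. It is given where it changes a call. Alternatives are listed in the closing section.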

Additional observations from a re-analysis of the deposited data

How the results depend on the processing

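Over 26 alternatives, 30 of 42 results for single genes (7 genes in 6 comparisons) kept their side of the threshold, and 0 of those that passed changed direction. Grhl3, Spint2 and Grhl2 kept their calls between the regions in every alternative run. The log2 differences of Grhl3 lay between -2.31 and -1.62 at E8.5 and between -2.04 and -1.55 at E9.5. The calls that changed were those of Prss8, Esrp1, Epcam and Spint1, and of Spint2 between the stages in open tissue. With the replicate block within stage, other than for Epcam and Prss8 at E8.5 and for Esrp1 and Epcam in the interaction, no call of the 7 genes changed. The causes were not tested. Members of the list that passed were 5 at E8.5 (4 to 6 with 1 array left out) and 3 with the filter at the 60th percentile, which leaves fewer genes tested. At E9.5 they were 5 (4 or 5 with 1 array left out). In open tissue between the stages they were 2 (1 to 3 with 1 array left out), 0 with the filter at the 60th percentile, 4 with array weights, and 1 with all probe sets one by one, without open E9.5 arrays 1 and 2 together, or with a limit of 1 on the log2 difference. With the 3-prime to 5-prime covariate they were also 2, with Spint2 in place of Prss8. In closed tissue they were 0 (0 or 1 with 1 array left out), 1 with quantile normalization or a fit of the groups compared, and 2 with RNA quality (3-prime to 5-prime signal) as a covariate. For the interaction they were 0, and 2 with the replicate block within stage.

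Of all genes, 957 passed at E8.5 (654 to 1097 with 1 array left out), 1139 at E9.5 (792 to 1533), 1593 over both stages (1277 to 1772), 670 between stages in open tissue (367 to 1262), 323 in closed tissue (174 to 375) and 167 in the interaction (84 to 239). With the 3-prime to 5-prime covariate 1519 passed at E8.5, 1764 at E9.5, 730 in closed tissue and 297 in the interaction. With array weights 3424 passed at E9.5, 4301 in open tissue and 215 in closed tissue; those weights favoured open E9.5 replicate 1 (6.29). With the replicate block within stage 1332 passed at E8.5, 2221 at E9.5 and 452 in the interaction. Without open E9.5 arrays 1 and 2 together 603 passed at E9.5, 182 in open tissue and 72 in the interaction. In a fit of the groups compared 150 passed in closed tissue. With a limit of 1 on the log2 difference 484 passed at E8.5, 454 at E9.5, 427 over both stages, 219 in open tissue and 161 in closed tissue. Where 1 array of a group was left, it was taken to vary like the other groups. The stage comparisons cannot be estimated with the block within stage. Signal near the filter limits Grhl1, Prss8 and Esrp1 at E9.5.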
